A study of Homo sapiens with 6 samples.

Results

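Basal and wound keratins are 7 genes of the SCC4 transcriptome, taken by symbol from a table of 16536 genes. They comprise the keratins of the basal layer of stratified epithelium, KRT5, KRT14 and KRT15, and the keratins of wounded epidermis, KRT6A, KRT6B, KRT16 and KRT17. All 7 were present and all 7 passed the filter on low values, with 15034 genes tested in total. SCC4 is an established human cell line from a squamous carcinoma of the tongue. RNA was sequenced from 3 libraries of parental cells in attached culture and from 3 libraries of sphere cells, which the same line formed in suspension culture and described by the submitters as cancer stem cells. Neither group carried a further treatment or genetic change named in the labels, and whether the replicates came from separate cultures is not stated there. All p-values therefore rest on the spread among these 6 libraries, part or all of which may be technical.

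Keratin filaments are built from pairs, each made of a type I keratin and a type II keratin. In stratified epithelium the basal layer makes the type II keratin K5 with the type I keratin K14, and K15 is a further type I keratin of basal cells. When epidermis is wounded or inflamed, and in many squamous carcinomas, keratinocytes switch on the type II keratins K6A and K6B and the type I keratins K16 and K17. Basal keratins are usually lower in the layers above, where other keratin pairs take their place.

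All 7 genes were called higher in sphere cells, but by unequal amounts. Of all tested genes 25.8% were called higher, 22.9% lower and 48.7% in either direction, so calls were common in this comparison. Parental and sphere libraries did not overlap in level for each of the 7 genes and for 65.0% of all tested genes. KRT5, KRT14, KRT15 and the wound keratin KRT16 rose between 5.21-fold and 15.1-fold as ratios of group means. The other wound keratins, KRT17, KRT6A and KRT6B, were 1.49-fold, 1.4-fold and 1.57-fold higher, and the calls for KRT17 and KRT6A depended on how libraries were scaled to each other. The most abundant type I keratin of the group was KRT17 in parental cells and KRT14 in sphere cells. Together the 7 genes took 0.776%, 0.644% and 0.763% of the parental library totals and 2.95%, 2.53% and 3.0% of the sphere totals.

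Values carry the name TPM in the deposited table and are called units here, so levels of different genes are taken as per transcript length. The 6 library totals lay between 885258 and 1134100 units. What made these totals unequal is not given in the sources used here, and they do not show sequencing depth, which is unknown. Below, the authors' scaling undone is a name that means that each library was divided by its own total and brought to a common total. Whether this reverses a step taken by the authors is not known. All 10 squamous epithelial markers were at 1 unit or more in every library, and their sum, which includes KRT5 and KRT14, was 6656 to 7170.1 units in parental and 26443 to 28063 units in sphere libraries. Erythroid markers summed to 1909.5 and 1264.4 units in parental replicates 2 and 3 and to 1202.6 units in sphere replicate 2, against 0 to 1.18 units in the other libraries, with 7 of 12 markers in the table and 6 of these reaching 5 units. Fibroblast markers, 5 of 10 in the table with COL1A1 and LUM reaching 5 units, summed to 9.40 to 12.4 units in parental and 27.4 to 32.3 units in sphere libraries. Of 10 simple epithelial markers, 6 were in the table, KRT8 and KRT18 among them. These markers summed to 926 to 983 units in parental and 421 to 454 units in sphere libraries. KRT8 and KRT18 carried this fall, from means of 453 and 447 units in parental to 176 and 137 units in sphere cells. The sum of the other markers of this list was higher in every sphere library than in any parental library. White blood cell markers, 3 of 6 in the table, lay between 69.8 and 97.5 units, carried by CD14 and CD68, and the 1 endothelial marker in the table, CDH5, between 2.33 and 5.36 units. Without the 3 libraries that held erythroid transcripts, parental replicate 1 alone was left against sphere replicates 1 and 3, with no parental spread. The log2 fold changes were then 2.44 for KRT5, 2.85 for KRT14, 3.98 for KRT15 and 2.89 for KRT16. They were 0.50 for KRT17, 0.58 for KRT6A and 0.62 for KRT6B. The part of the other marker lists in the keratin results was not tested. In bulk RNA, more cells of a type and more RNA per cell cannot be told apart.

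KRT5 and KRT14 had the highest levels of the group in sphere cells. KRT5 (ENSG00000186081), the type II partner of the basal pair, stood at 2214, 2165 and 2408 units in parental replicates 1 to 3 and at 11817, 11318 and 12203 units in sphere replicates 1 to 3. The lowest sphere value lay far above the highest parental value. In rank among all genes of its library it moved from places 31 to 47 to places 6 to 8. The log2 fold change on the log2(value + 1) scale was 2.38 with a standard error of 0.10 and a 95% interval of 2.13 to 2.63 (limma with Benjamini-Hochberg adjustment, adjusted p = 2.67e-05).

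KRT14 (ENSG00000186847), the type I partner, stood at 1480.3, 1402 and 1587 units in the parental and 10973, 10157 and 10323 units in the sphere libraries. The groups lay far apart, and replicates within a group differed little, with a coefficient of variation of 6.25% in parental and 4.12% in sphere cells. Its log2 fold change was 2.82 with a 95% interval of 2.58 to 3.05 (limma adjusted p = 1.35e-05). KRT14 stood at place 64 to 83 among the genes of the parental libraries and 7 to 9 in the sphere libraries.

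KRT15 (ENSG00000171346), a type I keratin of basal cells that is also used as a marker of hair follicle bulge cells, had the largest change of the 7. It stood at 163, 152 and 191 units in the parental and 2657, 2464 and 2505 units in the sphere libraries. Its mean went from 169 ± 20.02 to 2542 ± 102 units (SD, n = 3 each). The log2 fold change was 3.91 with a 95% interval of 3.68 to 4.14 (limma adjusted p = 4.79e-06), and 99.9% of tested genes had a log2 fold change at or below it. KRT15 moved from place 742 to 1055 in the parental libraries to place 34 to 50 in the sphere libraries.

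**Figure D1:**
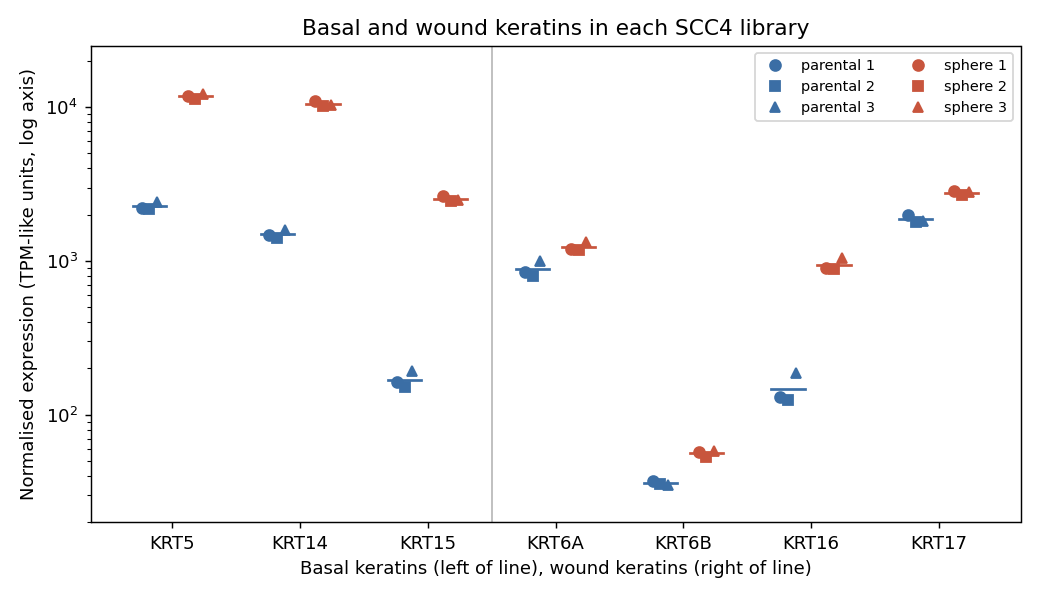
Normalised expression of the 7 keratins in TPM-like units on a log axis, with 1 point for each library and a line at each group mean of 3 libraries. Every sphere value lies above every parental value of the same gene, with wide gaps for KRT5, KRT14, KRT15 and KRT16 and narrow ones for KRT6A, KRT6B and KRT17, where the calls for KRT6A and KRT17 end when the authors' scaling is undone.

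Among the wound keratins, KRT16 (ENSG00000186832), the type I keratin that pairs with K6 in activated keratinocytes, changed most. It stood at 130.1, 124 and 186 units in the parental and 904, 885 and 1038 units in the sphere libraries. Parental replicate 3 was the highest of its group, and the coefficient of variation was 23.4% in parental cells against 8.82% in sphere cells. The groups did not overlap. The log2 fold change was 2.69 with a 95% interval of 2.28 to 3.11 (limma adjusted p = 9.21e-05).

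KRT17 (ENSG00000128422), a type I keratin of activated keratinocytes and of skin appendages, stood at 1996, 1804 and 1809 units in the parental and 2851, 2677 and 2805 units in the sphere libraries. The groups did not overlap, and the gap between them was larger than the range within either. The log2 fold change was 0.57 with a 95% interval of 0.38 to 0.76 (limma adjusted p = 0.00172). The call ended with the authors' scaling undone, where the log2 fold change was 0.41 (limma adjusted p = 0.0503), and with quantile normalization, where it was 0.36 (limma adjusted p = 0.241).

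KRT6A (ENSG00000205420), the main type II wound keratin here, stood at 846, 802 and 994 units in the parental and 1195, 1172 and 1332 units in the sphere libraries. The groups did not overlap, though the distance from parental replicate 3 to the lowest sphere library was smaller than the range within the parental group. The log2 fold change was 0.49 with a 95% interval of 0.24 to 0.74 (limma adjusted p = 0.0094). It was 0.33 with the authors' scaling undone (limma adjusted p = 0.138) and was not called under any of the 3 other scalings tried.

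KRT6B (ENSG00000185479), its close paralog, was the least abundant of the 7. It stood at 37.3, 35.3 and 34.96 units in the parental and 56.8, 53.5 and 58.5 units in the sphere libraries, with no overlap. The log2 fold change was 0.64 with a 95% interval of 0.51 to 0.76 (limma adjusted p = 2.18e-04). The call held under every alternative tried, with the highest adjusted p, 0.0217, when the authors' scaling was undone. KRT6C, the third gene of the K6 set, stood at 0.857, 1.01 and 1.90 units in the parental and 3.10, 2.33 and 4.03 units in the sphere libraries.

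A rise of at least 2-fold was called for 8.09% of tested genes and for 4 of the 7 keratins, KRT5, KRT14, KRT15 and KRT16. The 3 sphere values all lay above the 3 parental values for 37.6% of tested genes and for all 7 keratins. The lowest bound of the 95% intervals of KRT5, KRT14, KRT15 and KRT16 was 2.13, and the highest bound of those of KRT17, KRT6A and KRT6B was 0.76. The median log2 fold change of all tested genes was 0.04, and it was -0.09 with the authors' scaling undone.

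**Figure D2:**
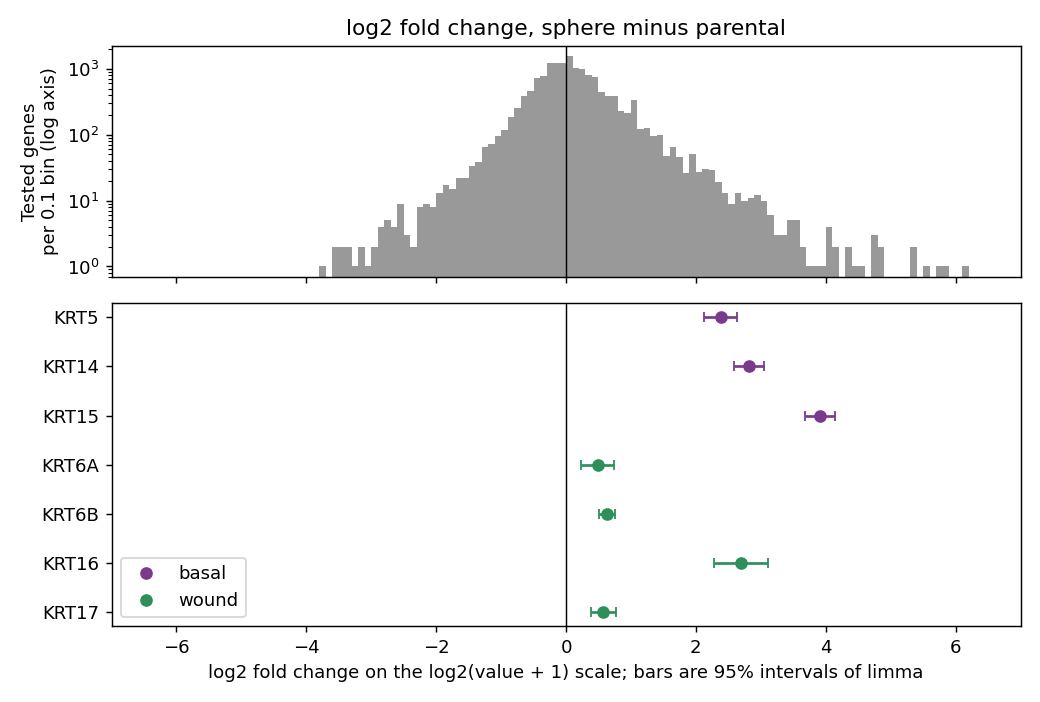
The upper panel counts all 15034 tested genes by log2 fold change, sphere minus parental, on a log axis, and the lower panel gives each keratin's log2 fold change with its 95% interval. KRT5, KRT14, KRT15 and KRT16 lie between 2.38 and 3.91, in the right tail of all genes, and KRT6A, KRT6B and KRT17 between 0.49 and 0.64, where KRT6A and KRT17 lose their calls when the authors' scaling is undone.

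The make-up of the keratin pool differed between the groups. Shares and ratios within a library do not change when all its values are multiplied by a constant, though quantile normalization can move them, and they are given here as descriptions with no test. The 3 basal keratins made up 56.2%, 57.4% and 58.1% of the 7-gene sum in the parental and 83.6%, 83.3% and 82.7% in the sphere libraries. Among the type I keratins of the group, KRT17 took 52.9%, 51.8% and 47.9% of the parental sum and 16.4%, 16.5% and 16.8% of the sphere sum. KRT14 took 39.3%, 40.3% and 42.1% of the same parental sum and 63.1%, 62.8% and 61.9% of the sphere sum, so the order of the pair was reversed in every library.

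KRT15 took 4.33% to 5.06% of the type I sum in the parental and 15.03% to 15.3% in the sphere libraries. KRT16 took 3.45%, 3.56% and 4.94% in the parental and 5.20%, 5.47% and 6.22% in the sphere libraries, the smallest shift of the 4 type I genes. Among the type II keratins, KRT5 went from 70.1% to 72.1% of the sum to 89.8% to 90.4%. KRT6A went from 26.7% to 28.9% to 9.14% to 9.80%, although its level in units was higher in every sphere library than in any parental library.

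**Figure D3:**
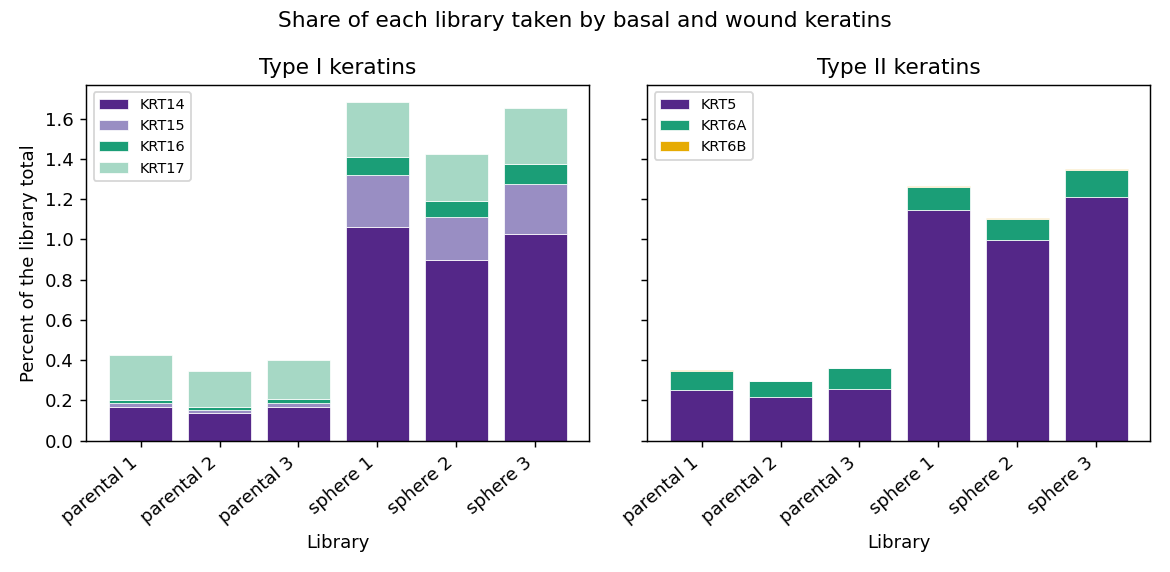
Stacked bars give the share of each library total, in percent, taken by the type I keratins (left) and the type II keratins (right). The bars rise in the sphere libraries mainly through KRT14, KRT15 and KRT5, and sphere replicate 2, which held erythroid transcripts, has the lowest sphere bars.

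Type I and type II sums both rose, with ratios between 1.10 and 1.33 in the 6 libraries. The type I sum minus the type II sum grew from a mean of 496 to 3678 units. The type I sum was 3675 ± 167 units in parental and 16746 ± 605 units in sphere cells, and the type II sum 3179 ± 228 and 13068 ± 525 units (SD, n = 3 each). Their ratio was 1.22, 1.16 and 1.10 in the parental and 1.33, 1.29 and 1.23 in the sphere libraries. The groups did not overlap, but parental replicate 1 and sphere replicate 3 were almost equal. The difference between groups in mean log2 ratio was 0.15, and 0.10 with quantile normalization. It was 0.07 without the 3 libraries that held erythroid transcripts, where the parental side was replicate 1 alone, the highest parental ratio. Counting all 30 keratin genes of the table, 16 of type I and 14 of type II, the ratio was 1.14, 1.125 and 1.06 in the parental and 1.32, 1.29 and 1.22 in the sphere libraries.

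Within the basal set the ratio moved further. KRT14 and KRT15 together stood at 0.742, 0.718 and 0.739 times KRT5 in the parental libraries and at 1.15, 1.12 and 1.05 times KRT5 in the sphere libraries, from below to above 1. KRT14 alone stood at 0.669, 0.647 and 0.659 times KRT5 in the parental and at 0.929, 0.897 and 0.846 times in the sphere libraries, below KRT5 in all 6. KRT15 accounted for the remainder, at 0.109 to 0.120 times KRT14 in the parental and 0.242 to 0.243 times in the sphere libraries.

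Within the wound set type I exceeded type II in every library. KRT16 and KRT17 together stood at 2.41, 2.30 and 1.94 times the sum of KRT6A and KRT6B in the parental and at 3.001, 2.91 and 2.76 times in the sphere libraries. The groups did not overlap, and parental replicate 3 was the lowest. KRT16 stood at 0.154, 0.155 and 0.188 times KRT6A in the parental and at 0.757, 0.755 and 0.779 times in the sphere libraries. The ratio of KRT6A to KRT6B, by contrast, overlapped between the groups, at 22.7, 22.7 and 28.4 in the parental and 21.0, 21.9 and 22.8 in the sphere libraries.

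**Figure D4:**
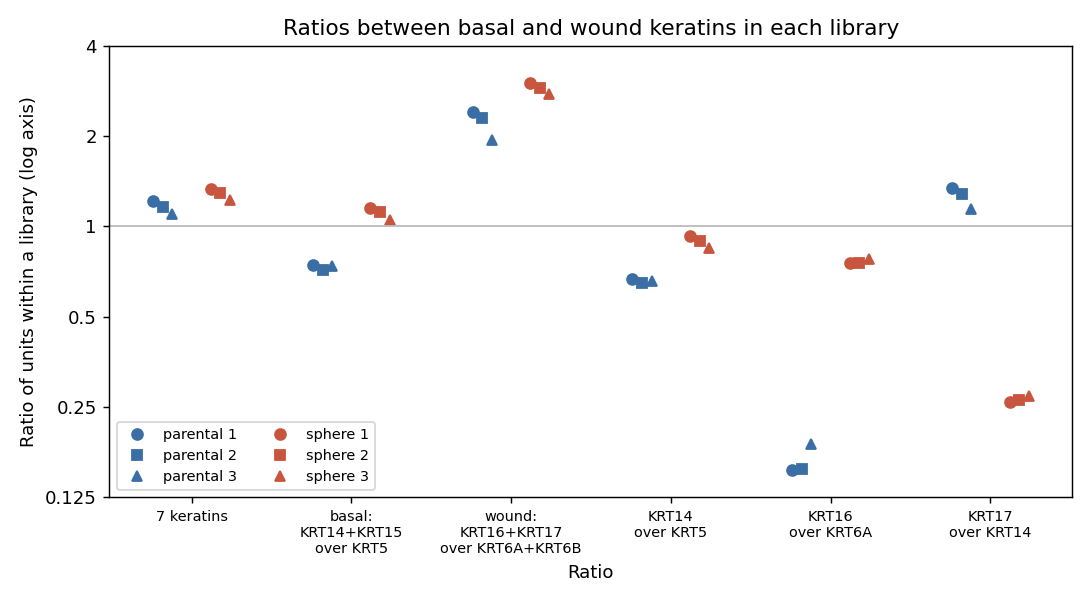
Ratios of units within each library on a log axis, with 1 point for each library and a line at 1. The type I to type II ratio of all 7 keratins differs little between groups (1.10 to 1.22 against 1.23 to 1.33), while KRT16 over KRT6A is 0.154 to 0.188 in parental and 0.755 to 0.779 in sphere libraries, and KRT17 over KRT14 is above 1 in parental and 0.260 to 0.272 in sphere libraries.

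These keratins are close in sequence within a type, which bears on how 50-base reads can be assigned. In GENCODE 29 (GRCh38), the type II genes KRT5, KRT6A and KRT6B lie on chromosome 12 and the type I genes KRT14, KRT15, KRT16 and KRT17 on chromosome 17. The coding sequences of KRT6A and KRT6B were identical at 97.5% of aligned positions, those of KRT14 and KRT16 at 85.2% and those of KRT14 and KRT17 at 77.97%. The following stretches show how few bases tell the K6 genes apart. They are positions 664 to 723 of each coding sequence, counted from the A of the start codon. Among 60-base stretches that start at a codon and align without gaps, none had more differences between KRT6A and KRT6B. Capitals mark positions at which any of the 3 genes differs.
KRT6A: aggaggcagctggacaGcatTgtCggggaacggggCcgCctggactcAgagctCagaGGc
KRT6B: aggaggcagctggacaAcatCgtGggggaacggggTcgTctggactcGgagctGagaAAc
KRT6C: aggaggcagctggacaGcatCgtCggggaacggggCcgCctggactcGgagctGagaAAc
Even here KRT6B differed from KRT6A at only 9 of 60 positions, and KRT6C at 5.

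The type I genes are further apart. The same choice of stretch for KRT16 against KRT14, with the matching positions of KRT17 and KRT15, shows the 2 genes with similar rises beside the one with a small rise. Positions are 967 to 1026 in KRT16, 961 to 1020 in KRT14, 868 to 927 in KRT17 and 934 to 993 in KRT15, and capitals mark positions at which any of the 4 genes differs.
KRT16: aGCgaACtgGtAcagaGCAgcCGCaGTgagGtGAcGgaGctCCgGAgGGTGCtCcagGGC
KRT14: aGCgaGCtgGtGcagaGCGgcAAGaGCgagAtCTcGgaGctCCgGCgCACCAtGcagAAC
KRT17: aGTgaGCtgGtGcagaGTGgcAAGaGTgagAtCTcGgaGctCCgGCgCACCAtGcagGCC
KRT15: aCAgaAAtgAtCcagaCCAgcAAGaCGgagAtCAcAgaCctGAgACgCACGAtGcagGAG
KRT14 and KRT17 each differed from KRT16 at 19 of 60 positions, and KRT15 at 26.

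Counting every 50-base window of 1 coding transcript per gene against all other genes of GENCODE 29, 39.1% of KRT6A windows and 47.1% of KRT6B windows were found unchanged in another gene. KRT6A shared 645 of its 2261 windows with KRT6B and 796 with KRT6C. KRT14 shared 23.8% of its windows with another gene, 11.2% with KRT16 and the rest mostly with KRT16 pseudogenes, and KRT16 shared 22.0%. KRT17 shared 17.4%, mostly with KRT17 pseudogenes, while KRT5 shared 3.99% and KRT15 0.328%. The KRT15 transcript had 5237 bases, of which 1368 were coding, and that of KRT5 had 2531, of which 1770 were coding. The KRT15 share is therefore taken over a much larger noncoding part. How the authors assigned reads that fit several genes is not given in the sources used here. The values of KRT6A and KRT6B, and to a lesser degree those of KRT14, KRT16 and KRT17, are therefore uncertain in their split. KRT14 averaged 10484 units and KRT16 942 units in sphere cells, and the part of shared reads in the rise of KRT16 was not tested.

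**Figure D5:**
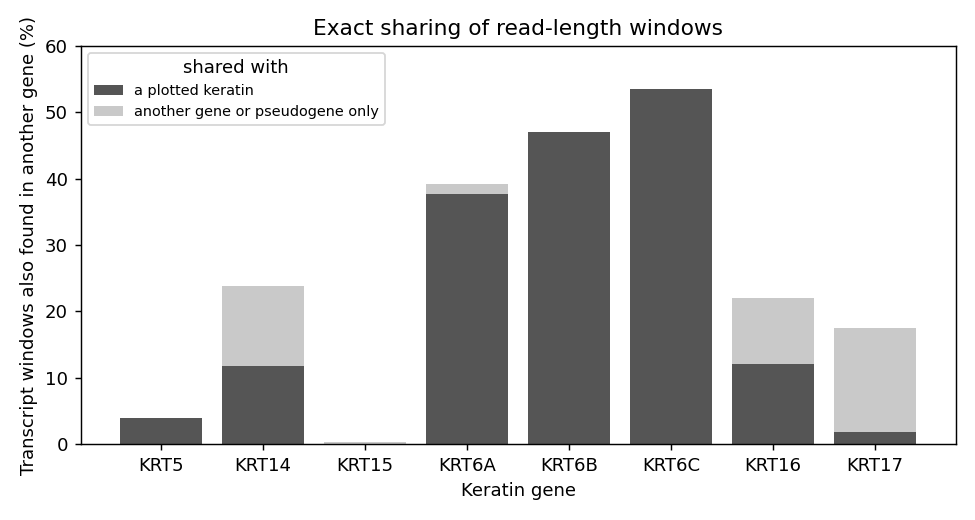
Percent of 50-base windows of each keratin transcript that are found unchanged in at least 1 other gene of GENCODE 29, split into windows shared with another of the 8 plotted keratins (dark) and those shared only with other genes or pseudogenes (light). The K6 genes share 39.1% to 53.6% of windows, KRT14, KRT16 and KRT17 17.4% to 23.8%, and KRT5 and KRT15 3.99% and 0.328%.

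The sequence before the KRT5 start is shown because KRT5 was the 1 gene of the 7 in the promoter table used here, which was drawn from RefSeq on GRCh38.p14. The 250 bases before the KRT5 start lie at chr12:52520395-52520644 on the minus strand.
KRT5: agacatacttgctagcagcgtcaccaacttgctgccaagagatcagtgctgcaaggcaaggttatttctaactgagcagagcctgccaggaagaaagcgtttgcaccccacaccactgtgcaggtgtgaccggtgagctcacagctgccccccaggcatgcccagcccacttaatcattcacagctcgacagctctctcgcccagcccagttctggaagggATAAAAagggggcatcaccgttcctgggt
Capitals mark the letters ATAAAA, a variant of the TATA box chosen after the sequence was seen, which begins 29 bases before the start. It occurs on either strand in 14.8% of all 35116 promoters of the same length. The letters TATAAA (10.7% of promoters), TGANTCA for AP-1 (6.57%), GCCNNNGGC for AP-2 (19.8%), the AP-2 form with a longer spacer (18.6%) and GGGCGG for SP1 (42.6%) were searched on both strands and are not in this window.

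Across libraries the 7 genes shared the step between groups. Pearson's r of log2 values over the 6 libraries was at least 0.965 between all pairs that leave out KRT6A, and 0.89 to 0.961 between KRT6A and the others. The step sets these values, and 17.7% to 19.1% of the 3125 genes of at least 50 units also had an r above 0.95 with each of KRT5, KRT14, KRT15, KRT16, KRT17 and KRT6B, against 3.14% with KRT6A. The 3 closest genes to KRT14 were FGFBP1, CCN2 and KRT15, and those to KRT15 were PLK2, KRT14 and CCN2. KRT5 lay closest to CAV1, FABP5 and ACLY, KRT17 to EFNA1, NDFIP2 and RARG, and KRT16 to HSDL2, HACD3 and KLF10. KRT6A lay closest to NCAPD2, SERPINB5 and POLDIP3, and KRT6B to SRSF6, MCL1 and GPC1.

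The other keratins showed changes in both directions around these 7. The 7 genes made up 84.9% to 86% of all keratin units in the parental and 96.3% to 96.7% in the sphere libraries. Of all tested genes 25.8% were called higher and 22.9% lower. Of 24 other type I keratins, 10 were tested, 5 rose and 1 fell, and of 23 other type II keratins, 9 were tested, 6 rose and 2 fell. Their median log2 fold changes were 0.98 and 1.04, against 0.04 for all tested genes, but KRT33B, KRT3, KRT78 and KRT86 counted as rises with the same values, 1.04, 1.14 and 1.01 units in the sphere libraries, and were listed at 0 in parental cells. KRT13, the type I keratin of internal squamous mucosa, rose from 9.46 ± 3.39 to 269 ± 17.2 units, and its partner KRT4 from 2.82 ± 0.905 to 97.4 ± 3.65 units. KRT1, a suprabasal type II keratin of epidermis, rose from 2.22 ± 1.51 to 212 ± 32.5 units. KRT31, a hair keratin, had values of 6.19, 4.59 and 5.04 units in sphere cells and was listed at 0 in all parental libraries. KRT10, the type I partner of K1, did not pass the test (limma adjusted p = 0.051). It stood at 51.1, 52.5 and 92.0 units in the parental and 89.0, 144.8 and 112.9 units in the sphere libraries. The log2 fold change was 0.84, and 0.68 with the authors' scaling undone (limma adjusted p = 0.123). The KRT10 change was 0.96 without the 3 libraries that held erythroid transcripts, where parental replicate 1 alone was left in its group. Of the simple-epithelium pair, KRT8 fell from 453 ± 15.4 to 176 ± 3.69 units and KRT18 from 447 ± 44.5 to 137 ± 5.84 units. The type II keratin gene KRT80 fell from 155 ± 6.76 to 17.6 ± 0.925 units. With the authors' scaling undone, 4 type I keratins rose and 1 fell, and 5 type II keratins rose and 2 fell, while 15.4% of all tested genes were called higher and 25.5% lower.

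Keratin filaments are held at hemidesmosomes and desmosomes. Of 18 anchorage genes, 8 rose and 6 fell, with a median log2 fold change of 0.12, against 25.8% of all tested genes called higher and 22.9% lower. With the authors' scaling undone, 6 rose and 6 fell, with a median of -0.04, against 15.4% and 25.5% of all tested genes. PKP1, a desmosomal plaque protein of stratified epithelium, rose from 66.7 ± 3.66 to 146 ± 7.38 units, and DSC3, a basal desmosomal cadherin, from 38.7 ± 0.808 to 81.3 ± 5.13 units. PPL, periplakin, fell from 158 ± 1.23 to 83.8 ± 3.05 units, and DSG2, a cadherin of simple epithelium, from 82.5 ± 3.17 to 45.1 ± 1.15 units.

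Of 31 transcription factors linked to these keratin genes, 28 were tested, 14 rose and 5 fell, with a median log2 fold change of 0.34, against the same 25.8% and 22.9% of all tested genes. With the authors' scaling undone 9 rose and 5 fell, against 15.4% and 25.5%. Both counts of rises hold POU2F3, which was listed at 0 in parental cells and at 1.04, 1.14 and 1.01 units in the sphere libraries. JUNB, an AP-1 subunit, rose from 104 ± 1.75 to 542 ± 12.97 units. SOX2 rose from 2.83 ± 0.193 to 19.7 ± 0.976 units, and KLF5, a factor of basal keratinocytes, from 132 ± 6.77 to 230.4 ± 2.75 units. ELF3, an epithelial factor, rose from 32.4 ± 1.91 to 77.1 ± 2.47 units. TP63, the lineage factor known to act on KRT5 and KRT14 and named here after its values were seen, rose from 121 ± 14.5 to 231 ± 2.95 units (limma adjusted p = 4.40e-04).

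Signals of keratinocyte activation, the setting in which wound keratins are known to be induced, formed a list of 24 genes. Of these, 21 were tested, 7 rose and 7 fell, with a median log2 fold change of 0.09, against 25.8% and 22.9% of all tested genes. With the authors' scaling undone 6 rose and 7 fell, with a median of -0.06, against 15.4% and 25.5%. The chemokine gene CXCL1 rose from 27.9 ± 5.36 to 352 ± 22.1 units and the receptor gene EGFR from 228 ± 3.60 to 507 ± 20.8 units. Its ligand genes AREG and EREG fell from 204 ± 19.7 to 26.8 ± 2.39 units and from 32.1 ± 2.46 to 11.6 ± 0.417 units.

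Of 9 genes whose products bind, modify or chaperone keratins, 2 rose and 4 fell, with a median log2 fold change of -0.09. Of all tested genes 25.8% were called higher and 22.9% lower. With the authors' scaling undone 1 of the 9 rose and 4 fell, against 15.4% and 25.5% of all tested genes. The small heat shock protein gene HSPB1 rose from 507 ± 67.5 to 1941 ± 144 units. SFN, which encodes an epithelial 14-3-3 protein known to bind K17 in mouse keratinocytes, stood at 1217 ± 61.5 and 1736 ± 72.04 units, a call that ended with the authors' scaling undone (limma adjusted p = 0.0622). YWHAZ and CSNK1A1, a 14-3-3 protein gene and the gene of the kinase CK1 alpha, fell from 827 ± 28.5 to 571 ± 12.5 units and from 264 ± 4.38 to 204 ± 4.95 units. Of 21 other genes of basal keratinocytes, 19 were tested, 10 rose and 6 fell, with a median log2 fold change of 0.66, against the same 25.8% and 22.9%. With the authors' scaling undone 9 rose and 6 fell, with a median of 0.50, against the same 15.4% and 25.5%. CAV1, caveolin, rose from 413 ± 13.9 to 1015 ± 22.3 units, and MMP10, a stromelysin of the wound edge, from 2.51 ± 0.431 to 185 ± 8.90 units. EFNB2, an ephrin, fell from 25.5 ± 0.249 to 9.50 ± 0.511 units.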

How the data were processed

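The 6 SCC4 libraries were made from total RNA and read from 1 end over 50 bases on a BGISEQ machine (source: protocols in the labels). HISAT and Bowtie2 are named, without versions, in the submitters' processing notes, beside a mouse build, although all genes are human. The deposited values, named TPM by the authors, were handled as a signal, because library totals are not equal as TPM totals would be. How the authors counted reads is not given in the sources used here, and no count model was run.

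The scale of analysis was log2(value + 1), on which changes of low genes come out too small. A gene was tested if 3 or more of 6 libraries reached 1 unit. The test was limma 3.58.1 (R 4.3.3) with 2 groups and a mean trend, two-sided, Benjamini-Hochberg adjusted over all tested genes, at a threshold of 0.05. It was tested on simulated data. The design had assumed TPM, and its test was kept. Coding sequences were aligned with Biopython 1.88.

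All 7 keratins are named. Each list gives up to 4 called genes with the smallest p and a mean of at least 5 units, plus other keratins of at least 50 units. A further gene under this rule is not reported here. Likeness gives the 3 highest Pearson r among genes of at least 50 units. Genes and lists were chosen with earlier results of these data known. Alternatives changed the pseudocount, the filter, the scaling or the variance model, added a replicate block, left out libraries or averaged sphere replicates 1 and 3. List counts and medians under 2 of them were added after the data were seen.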

Additional observations from a re-analysis of the deposited data

How the results depend on the processing

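The calls for KRT5, KRT14, KRT15, KRT16 and KRT6B held under all 19 alternatives, with log2 fold changes of 2.06 to 2.44, 2.42 to 2.86, 3.75 to 4.0, 2.53 to 2.89 and 0.48 to 0.67. KRT17 lost its call with quantile normalization (0.36) and with the authors' scaling undone (0.41). KRT6A lost its call with quantile normalization (0.38), with the authors' scaling undone (0.33), with mitochondrially encoded genes left out (0.39) and with keratins left out of the library totals (0.36). Without each library in turn, KRT17 lay between 0.55 and 0.62 and KRT6A between 0.42 and 0.58, all called. Undoing the scaling lowered the share of called genes that were higher from 53.0% to 37.7%, and it was 46.7% after quantile normalization, 44.2% without mitochondrially encoded genes and 40.7% with keratins left out of the totals. Over all genes 5511 to 7667 were called, against 7315. Leaving out the 3 libraries that held erythroid transcripts, 1 of the 19 alternatives, left parental replicate 1 alone in its group, with no parental spread. The group difference in mean log2 type I to type II ratio was then 0.070 for all 7 keratins, against 0.15, and 0.26 for the wound keratins, against 0.39. The cause of these shifts was not tested. For the basal keratins this difference was 0.59, and 0.56 to 0.63 without each library in turn. Deviations of same-numbered libraries from their group means had correlations of 0.329, 0.121 and -0.273, and not every library correlated best with its own number. These values do not settle whether equal numbers mark paired libraries. The replicate block called 6176 genes and kept all 7 keratin calls. With the 3 libraries that held erythroid transcripts left out, the median log2 fold change of the keratin-binding genes was -0.07, against -0.09. Depth is unknown, so values near 1 unit cannot be ranked.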

Other observations

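Parental replicate 3 stood above the other parental libraries for KRT19, KRT10, KRT13 and KRT16, genes picked after their values were seen. KRT19 stood at 15.4 units there, against 0.70 and 1.02 units in parental replicates 1 and 2, and at 14.5, 31.3 and 14.1 units in the sphere libraries. KRT10 stood at 92.0 units there against 51.1 and 52.5 units, and KRT13 at 13.3 against 6.97 and 8.07 units. KRT16 was highest in the same library, at 186 units. So were KRT5, KRT14, KRT15 and KRT6A, at 2408, 1587, 191 and 994 units. KRT17 was not, at 1809 units between 1804 and 1996 units, and KRT6B was lowest there, at 34.96 units.

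Of 15 other intermediate filament genes, 10 were tested, 2 rose and 2 fell, against 25.8% and 22.9% of all tested genes. With the authors' scaling undone 9 were tested, 1 rose and 3 fell, against 15.4% and 25.5%. The lamin gene LMNB1 rose from 63.9 ± 2.93 to 96.4 ± 2.77 units, and LMNA fell from 587 ± 36.2 to 442 ± 15.9 units (SD, n = 3 each). NEFL and LMNB2 passed the test, with log2 fold changes of 0.49 and -0.16. These were 0.54 and -0.12 without the 3 libraries that held erythroid transcripts, where parental replicate 1 alone was left in its group. NEFL did not pass with the authors' scaling undone (limma adjusted p = 0.134). VIM, the mesenchymal filament gene, stood at 0.0964, 19.2 and 165 units in the parental and 0.0433, 18.5 and 0.011 units in the sphere libraries, and did not pass the test. Its values of at least 5 units were in the libraries that held erythroid transcripts.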
